A study of Mus musculus with 16 samples.

Results

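The genes described here carry out mitosis and cytokinesis, the separation of the copied chromosomes and of the cell body. They were taken from a list of 53 genes, matched to the array by the gene symbol of the platform annotation. Of the 53, 51 were measured, and Ccnb1 and Nuf2 were not analysed here. Each gene was read from its probe set of highest mean over all arrays. The 51 members stand among 17097 genes with a probe set, of which 14819 were tested, all 51 members included.

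Fibroblasts, which build the matrix of the dermis, were isolated from female mice of the inbred strain C57Bl/6. There were 4 groups of 4 arrays each: old cultured, young cultured, old in vivo and young in vivo, where old means 18 months, young means 2 months and in vivo means profiled directly after isolation. Each of the 8 mice gave a cultured and an in vivo sample, and RNA from 5000 cells per sample was amplified over 23 cycles and hybridised to an Affymetrix mouse array. How long and in what medium the cells were grown is not stated in the labels, and neither is which cultured and in vivo samples came from one animal.

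A dividing cell enters mitosis when a cyclin-dependent kinase bound to its cyclin is switched on. Chromosomes are then condensed, attached through their kinetochores to spindle microtubules and held by the spindle assembly checkpoint until the anaphase promoting complex releases them, after which an actin ring divides the cell. Many of these genes are transcribed mainly in late cell cycle phases, so their RNA is commonly used as a sign of cells in cycle, and fibroblasts of resting skin are known to be mostly out of cycle.

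Most values below are log2 values of the array signal, so a difference of 1 corresponds to a change of 2-fold, and ± after a difference is its standard error from limma. Because RMA values contain background signal, differences of dim genes are understated, and levels of different genes cannot be set against each other. Fibroblast marker genes were detected in every group, with mean levels of 9.13 to 9.36 in old cultured, 9.10 to 9.47 in young cultured, 10.70 to 10.90 in old in vivo and 10.85 to 10.90 in young in vivo arrays, and all 9 were lower in culture. Of the markers of other cells, 6 of 6 tested macrophage, 6 of 6 T cell, 5 of 5 melanocyte and 6 of 8 endothelial genes were also lower in culture. So were 5 of 9 keratinocyte genes, with 1 higher, 2 of 3 B cell and 1 of 2 mast cell genes. Erythroid and dermal papilla genes had 1 higher and 1 lower each. Over all genes tested, 44.7% were called lower and 34.8% higher (limma, adjusted p under 0.05). The T cell changes were small, with a median of -0.24. Pericyte and smooth muscle genes went both ways, with 2 of 6 higher and 2 lower. The mean keratinocyte marker level was 4.73 to 4.95 in old cultured and 4.89 to 5.05 in young cultured arrays, against 5.17 to 6.69 in old in vivo and 5.17 to 5.46 in young in vivo arrays. The 3' minus 5' difference of the actin probe sets, a measure of RNA integrity and amplification, was 0.10 ± 0.07 in old cultured and 0.07 ± 0.04 in young cultured arrays, against -0.46 ± 0.11 in old in vivo and -0.41 ± 0.07 in young in vivo arrays (SD, n = 4 each). These measures moved with culture, and their part in the changes below was not tested. Some markers were also called for age in vivo (limma, adjusted p under 0.05), as were 1.35% of all genes. The macrophage gene Csf1r (-1.075 ± 0.15) and the fibroblast gene Col1a2 (-0.635 ± 0.13) were lower in old mice. The pericyte gene Kcnj8 (1.06 ± 0.22) was higher.

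Nearly all of these genes had a higher signal in cultured than in freshly isolated fibroblasts. Of the 51 members, 50 rose in culture over both ages at an adjusted p under 0.05 (limma, Benjamini-Hochberg over all genes tested), where 34.8% of all genes tested were called higher. None fell, where 44.7% of all genes were called lower, and the member not called was the kinesin Kif15. The median change of the members was 2.41, a 5.32-fold higher signal, beside a median of -0.11 over all genes. The rise was at least 1 on the log2 scale for 44 members (13.3% of all genes), at least 2 for 30 (3.35%), at least 3 for 19 (1.09%) and at least 4 for 8 (0.337%). For 47 members every cultured array lay above every in vivo array, as for 23.9% of all genes, and the 4 exceptions were Cdc25b, Kif15, Kif22 and Smc2. In bulk samples, fewer cells in division and less RNA per dividing cell cannot be told apart.

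**Figure D1:**
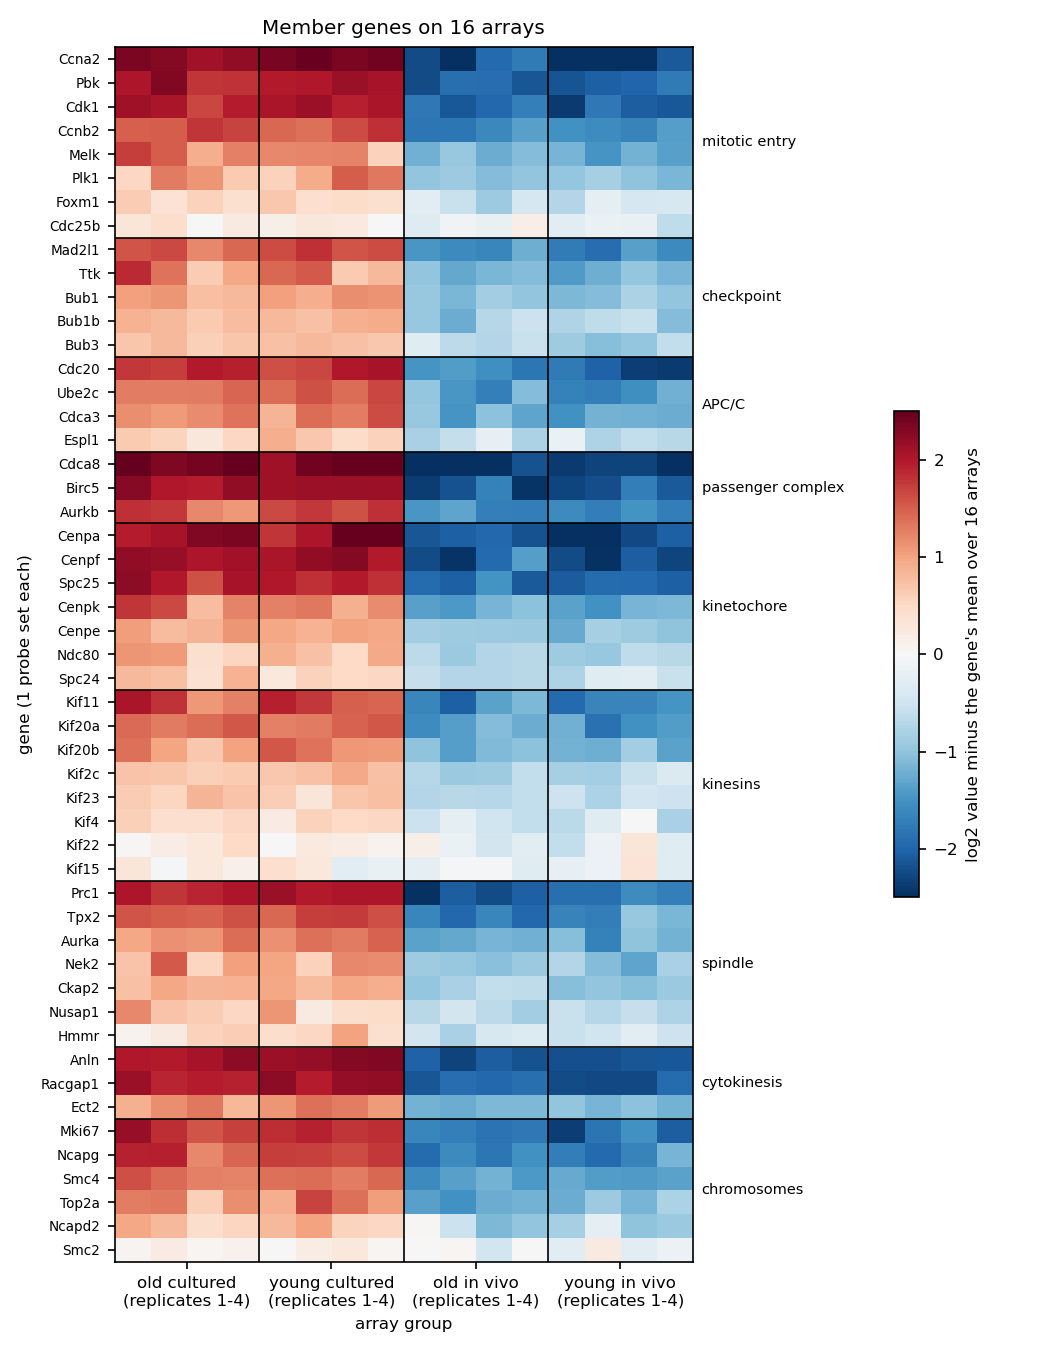
Log2 value of each of the 51 members (rows, grouped by role) on each of the 16 arrays (columns, 4 groups of 4), with the gene's mean over all arrays taken off. Cultured arrays are above the gene's mean in nearly every row, and the rows of Smc2, Kif15, Kif22 and Cdc25b are the palest.

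The rise was called at both ages. In old mice 49 members rose in culture (30.2% of all genes were higher), with a median change of 2.40, and in young mice 48 rose (32.6%), with a median of 2.42. Per array, the median over the 51 members was 7.50 to 7.82 in old cultured and 7.58 to 7.71 in young cultured arrays, against 4.78 to 4.98 in old in vivo and 4.86 to 5.0 in young in vivo arrays. No cultured array came near an in vivo array in this summary.

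In freshly isolated cells many members were above a background level, but a smaller share than of all genes. As a guide to background, the 95th percentile of the 12 poly-A control probe sets was 4.34. On all 8 in vivo arrays 33 of the 51 members lay above it, and so did 11348 of the 14819 genes tested. A further 11 members did so on some, and 7 on none (Pbk, Bub1, Cenpk, Kif23, Nusap1, Anln and Ect2), a share of 13.7% beside 9.18% of all genes tested. A value above it was not taken as expression. Of the markers, 3 of 6 T cell and 3 of 4 B cell genes also had in vivo means above it at each age. In culture 50 members were above it on all 8 arrays, and Kif15 on 7. The 11 were Cenpf, Kif11 and Spc25, each above it on 1 in vivo array, Nek2 on 2, Cenpa and Ttk on 3, Kif20b and Top2a on 4, Kif4 and Kif15 on 5, and Racgap1 on 6. Folds of the 7 and the 11 are given, where given, as lower bounds of the probe set read, with each in vivo array taken at no less than the control level. Where a log2 change with its standard error is printed for one of these members, it is as measured and rests in part on background values.

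The promoters of these genes share short sequences that the choice of the genes did not use. The CCAAT box is bound by the factor NF-Y, and the cell cycle genes homology region, an element with the core TTTGAA, is bound by the MuvB complexes that repress these genes in resting cells and activate them before mitosis. Windows of 250 bases before to 50 bases from the annotated start were taken from RefSeq (GRCm38.p6), and 43 of the 51 members had at least 1 window, 48 windows in all. Both strands were searched. The first motif was CCAAT, read on the other strand as ATTGG. The second was TTTGAA, read on the other strand as TTCAAA, and the variant TTCGAA was also counted. A CCAAT box lay in 39 of the 48 member windows (81.2%), against 37.4% of 32851 windows of all genes, and 24 (50%) held at least 2, against 11.7%. A homology region also lay in 39 (81.2%), against 19.2% of all windows, and it began within 50 bases of the start in 34 (70.8%), against 5.31%. Both elements were present in 34 windows (70.8%), against 7.52%, and neither in 4 (8.33%), against 50.9%. Matches to the 2 kinds of motif overlapped in 1 member window, that of Cdca8. A match is a description of the letters and not evidence of binding.

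The stretches printed here, from 150 bases before the start to 30 bases from it, show 5 genes with strong rises and both elements, then 1 with a strong rise and neither, then the member that was not called. Capitals mark the motif matches, and each stretch is written 5' to 3' on the strand of its gene. The Cdca8 stretch lies at chr4:124936888-124937067 on the minus strand, Cenpa at chr5:30666736-30666915 on the plus strand, Cdk1 at chr10:69352883-69353062 on the minus strand, and Cdc20 at chr4:118437314-118437493 on the minus strand. Ccnb2 lies at chr9:70421525-70421704 on the minus strand, Birc5 at chr11:117849087-117849266 on the plus strand, and Kif15 at chr9:122950931-122951110 on the plus strand.
Cdca8: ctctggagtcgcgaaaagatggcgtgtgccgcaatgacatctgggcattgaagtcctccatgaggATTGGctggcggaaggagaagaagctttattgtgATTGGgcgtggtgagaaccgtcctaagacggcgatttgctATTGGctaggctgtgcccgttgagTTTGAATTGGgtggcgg
Cenpa: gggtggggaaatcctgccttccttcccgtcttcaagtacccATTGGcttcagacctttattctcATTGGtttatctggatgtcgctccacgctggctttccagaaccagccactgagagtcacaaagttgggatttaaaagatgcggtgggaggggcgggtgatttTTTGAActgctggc
Cdk1: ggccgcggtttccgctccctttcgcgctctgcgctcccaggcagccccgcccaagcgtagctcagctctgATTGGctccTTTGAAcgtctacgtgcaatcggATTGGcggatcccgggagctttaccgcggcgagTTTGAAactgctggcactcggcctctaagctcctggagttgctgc
Cdc20: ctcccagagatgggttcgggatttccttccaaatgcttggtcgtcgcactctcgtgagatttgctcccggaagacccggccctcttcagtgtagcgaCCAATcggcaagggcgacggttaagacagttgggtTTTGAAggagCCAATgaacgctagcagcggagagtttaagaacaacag
Ccnb2: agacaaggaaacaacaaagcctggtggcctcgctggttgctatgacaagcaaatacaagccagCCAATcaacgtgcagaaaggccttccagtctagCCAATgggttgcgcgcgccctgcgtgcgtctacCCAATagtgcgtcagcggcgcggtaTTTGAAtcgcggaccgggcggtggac
Birc5: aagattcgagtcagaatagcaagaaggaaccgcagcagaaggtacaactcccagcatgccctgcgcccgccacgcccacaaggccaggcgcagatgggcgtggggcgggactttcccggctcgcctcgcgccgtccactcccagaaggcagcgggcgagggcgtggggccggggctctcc
Kif15: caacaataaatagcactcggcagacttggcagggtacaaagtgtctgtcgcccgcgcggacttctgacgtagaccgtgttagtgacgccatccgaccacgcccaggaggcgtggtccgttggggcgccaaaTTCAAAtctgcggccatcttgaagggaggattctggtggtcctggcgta

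Counting the first transcribed base as 1 and the base before it as -1, the 4 CCAAT boxes of Cdca8 began at -85, -51, -11 and 19, and its homology region at 14. Cdk1 had boxes at -80 and -48, a further one at -208 outside the printed stretch, and homology regions at -71 and -15. In Ccnb2 the boxes at -87, -54 and -21 were followed by a homology region at 5. In Kif15 no CCAAT box was found, and 1 of its homology regions, at -19, is in the printed stretch. Which kinds of element were present did not order the changes. The median rise was 2.35 for the 31 genes with both elements in a window and 1.92 for the 8 with 1 kind. It was 2.77 for the 4 with neither, Birc5, Mad2l1, Melk and Nusap1. The ranges overlapped, from 0.23 to 4.88 with both, from 0.23 to 4.31 with one kind and from 1.32 to 4.26 with neither.

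**Figure D2:**
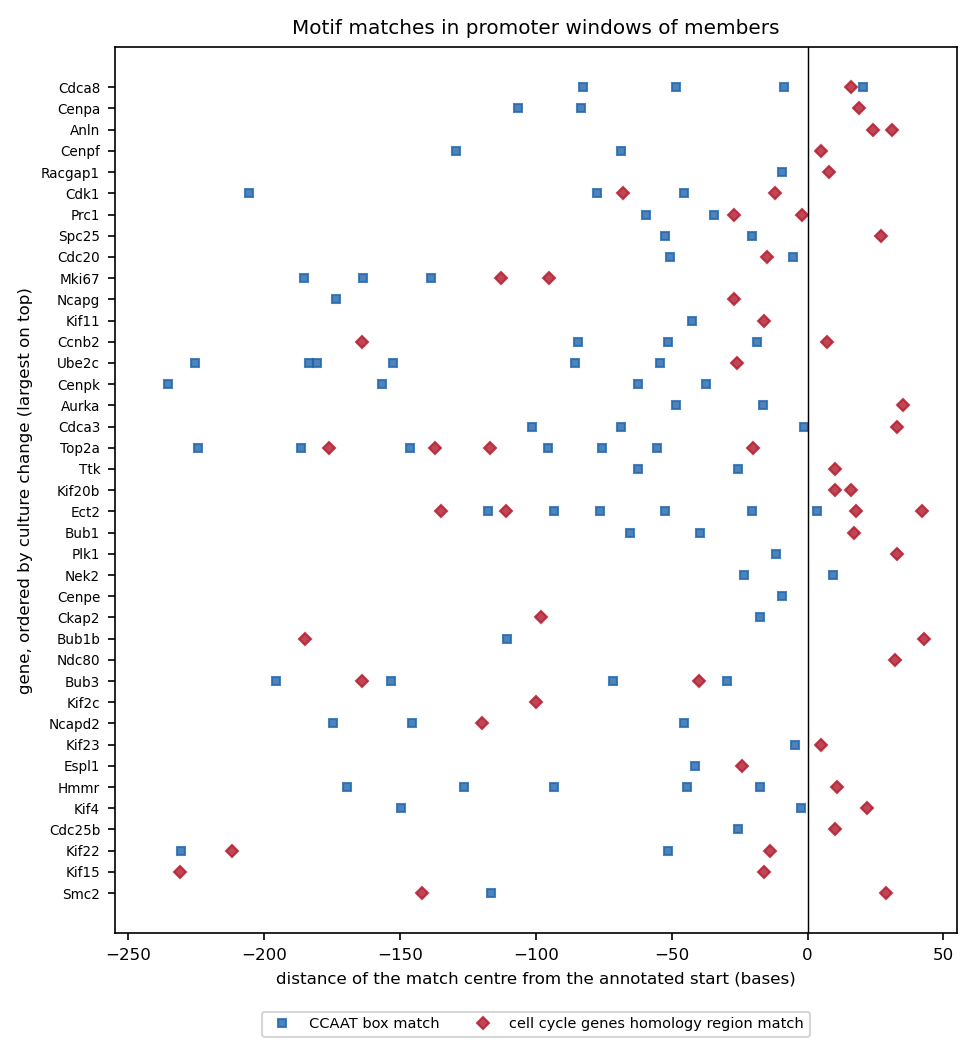
Position of each motif match (centre of the match, in bases from the annotated start, x axis) in the promoter windows of members with a match, ordered by culture change with the largest on top. Squares are CCAAT boxes and diamonds are cell cycle genes homology regions, which began within 50 bases of the start in 34 of 48 windows.

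The genes that start mitosis rose together. All 8 measured kinases, cyclins and regulators of mitotic entry rose in culture, with a median change of 2.80. Ccna2, cyclin A2, which activates cyclin-dependent kinases from DNA replication to early mitosis, had log2 values of 10.20, 10.13, 9.94 and 10.06 in old cultured arrays and 10.22, 10.31, 10.20 and 10.25 in young cultured arrays, against 5.61, 5.19, 5.90 and 6.08 in old in vivo arrays and 5.07, 5.24, 5.35 and 5.74 in young in vivo arrays. Every cultured array stood far above every in vivo array, and the change was 4.64 ± 0.11, or 25-fold (adjusted p = 1.6e-15). Cdk1, the kinase that drives entry into mitosis, had values of 9.48, 9.40, 9.03 and 9.31 in old cultured arrays and 9.39, 9.50, 9.30 and 9.39 in young cultured arrays, against 5.56, 5.24, 5.39 and 5.64 in old in vivo arrays and 4.96, 5.56, 5.29 and 5.23 in young in vivo arrays. Its groups were likewise apart, by 3.99 ± 0.09 or 15.9-fold (adjusted p = 5.3e-16). Cdc25b, a phosphatase that removes the inhibitory marks from cyclin-dependent kinases, changed least of this group, with values of 6.10, 6.24, 5.79 and 6.03 in old cultured arrays and 5.94, 6.08, 6.04 and 5.81 in young cultured arrays, against 5.48, 5.71, 5.62 and 5.96 in old in vivo arrays and 5.53, 5.64, 5.62 and 5.17 in young in vivo arrays. Its cultured and in vivo arrays overlapped, through old in vivo replicate 4, and the change was 0.41 ± 0.09 (adjusted p = 5.3e-04). Between these lay Pbk, a mitotic kinase, which was at least 9.17-fold higher, Ccnb2, cyclin B2, with a change of 3.18 ± 0.09, Melk, a kinase of dividing cells, with 2.41 ± 0.12, Plk1, the polo-like kinase of spindle assembly, with 1.98 ± 0.13, and Foxm1, a transcription factor of late cell cycle genes, with 0.98 ± 0.09.

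The spindle assembly checkpoint, which delays separation until every kinetochore is attached, rose in all 5 members, with a median of 1.98. Mad2l1, the MAD2 protein that holds back Cdc20, had values of 8.28, 8.35, 7.91 and 8.13 in old cultured arrays and 8.33, 8.53, 8.27 and 8.34 in young cultured arrays, against 5.25, 5.11, 5.08 and 5.49 in old in vivo arrays and 4.95, 4.79, 5.34 and 5.11 in young in vivo arrays. The groups did not overlap between conditions, and the change was 3.13 ± 0.09, or 8.74-fold (adjusted p = 1.2e-14). Bub3, which brings the checkpoint kinases to kinetochores, had values of 9.96, 10.07, 9.86 and 9.96 in old cultured arrays and 9.99, 10.07, 10.0 and 9.93 in young cultured arrays, against 8.96, 8.61, 8.53 and 8.71 in old in vivo arrays and 8.37, 8.20, 8.30 and 8.64 in young in vivo arrays. It was well above the controls in vivo on every array and still rose, by 1.44 ± 0.07, or 2.71-fold (adjusted p = 1.6e-11). The checkpoint kinase Ttk rose by 2.31 ± 0.16 and Bub1b, the BUBR1 protein, by 1.61 ± 0.10, while the kinase Bub1 was at least 2.62-fold higher.

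Partners and substrates of the anaphase promoting complex, taken with separase, rose in all 4 cases, with a median of 2.66. Cdc20, the activator that directs the anaphase promoting complex to its mitotic substrates, had values of 9.12, 9.07, 9.32 and 9.29 in old cultured arrays and 8.95, 9.01, 9.35 and 9.40 in young cultured arrays, against 5.87, 5.94, 5.82 and 5.53 in old in vivo arrays and 5.58, 5.33, 5.0 and 4.95 in young in vivo arrays. Cultured and in vivo arrays were far apart, with a change of 3.69 ± 0.10, or 12.9-fold (adjusted p = 6.8e-15). Espl1, separase, the protease that cuts cohesin, had values of 6.23, 6.13, 5.85 and 6.08 in old cultured arrays and 6.48, 6.25, 6.03 and 6.15 in young cultured arrays, against 4.77, 4.98, 5.36 and 4.78 in old in vivo arrays and 5.41, 4.81, 4.96 and 4.88 in young in vivo arrays. The lowest cultured array, old replicate 3, was above the highest in vivo array, young replicate 1, and the change was 1.16 ± 0.11 (adjusted p = 3.5e-08). Ube2c, the ubiquitin-conjugating enzyme of the complex, rose by 2.84 ± 0.10 and Cdca3, one of its substrates, by 2.48 ± 0.11.

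All 3 members from the chromosomal passenger complex, which corrects faulty attachments and later acts in cytokinesis, rose strongly, with a median of 4.26. A further subunit, Incenp, was counted with the other mitosis genes below and rose less, by 1.91 ± 0.12. Cdca8, the borealin subunit, whose promoter is printed above, had values of 9.53, 9.34, 9.41 and 9.52 in old cultured arrays and 9.13, 9.42, 9.57 and 9.70 in young cultured arrays, against 4.44, 4.40, 4.47 and 4.83 in old in vivo arrays and 4.62, 4.70, 4.69 and 4.42 in young in vivo arrays. It had the largest rise of the 51 members, 4.88 ± 0.09, or 29.5-fold (adjusted p = 4.6e-17), and in vivo it lay just above the controls on every array. Aurkb, the kinase of the complex, had values of 8.43, 8.37, 7.81 and 7.70 in old cultured arrays and 8.26, 8.37, 8.20 and 8.44 in young cultured arrays, against 5.16, 5.30, 4.91 and 4.89 in old in vivo arrays and 5.01, 4.89, 5.12 and 4.89 in young in vivo arrays. The arrays of old cultured replicates 3 and 4 were the lowest cultured ones but far above all in vivo arrays, and the change was 3.18 ± 0.11, or 9.04-fold (adjusted p = 6.3e-14). Birc5, the survivin subunit, whose window held neither element, rose by 4.26 ± 0.10.

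Centromere and kinetochore genes rose in all 7 measured cases, with a median of 2.53. Cenpa, the histone H3 variant that marks centromeres, had values of 8.39, 8.48, 8.74 and 8.77 in old cultured arrays and 8.21, 8.44, 9.0 and 8.94 in young cultured arrays, against 4.28, 4.37, 4.46 and 4.24 in old in vivo arrays and 3.91, 3.90, 4.17 and 4.38 in young in vivo arrays. The conditions were far apart, by 4.41 ± 0.11, or at least 19.1-fold (adjusted p = 3.1e-15), with 3 of the 8 in vivo arrays above the control level. A second Cenpa probe set, with an in vivo mean of 5.14, changed by 0.04. Spc24, a subunit of the NDC80 complex that grips microtubules, had values of 6.39, 6.34, 5.97 and 6.46 in old cultured arrays and 5.84, 6.15, 6.07 and 6.10 in young cultured arrays, against 5.0, 4.85, 4.85 and 4.88 in old in vivo arrays and 4.81, 5.27, 5.29 and 5.03 in young in vivo arrays. It changed least here, by 1.17 ± 0.09, or 2.25-fold (adjusted p = 1.8e-09), again with no overlap between conditions. Its partners Spc25 and Ndc80 rose by 3.88 ± 0.10 and 1.54 ± 0.10, the large kinetochore proteins Cenpf and Cenpe by 4.27 ± 0.12 and 1.90 ± 0.07, and Cenpk, of the inner kinetochore, was at least 3.48-fold higher.

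The kinesin motors had the smallest median of the 9 role groups, 1.35, and 7 of 8 rose. Kif11, the motor that pushes the spindle poles apart, had values of 7.71, 7.48, 6.76 and 6.92 in old cultured arrays and 7.61, 7.43, 7.16 and 7.12 in young cultured arrays, against 4.04, 3.62, 4.32 and 4.55 in old in vivo arrays and 3.72, 4.01, 4.01 and 4.20 in young in vivo arrays. Its cultured arrays spread over nearly 1 log2 unit and still lay far above the in vivo arrays, with a change of 3.21 ± 0.15, or at least 7.5-fold (adjusted p = 5.2e-12), where 1 of the 8 in vivo arrays was above the controls. Kif15, a motor that can support the bipolar spindle beside Kif11, had values of 4.87, 4.54, 4.83 and 4.68 in old cultured arrays and 4.98, 4.83, 4.29 and 4.38 in young cultured arrays, against 4.32, 4.52, 4.53 and 4.26 in old in vivo arrays and 4.36, 4.42, 4.90 and 4.25 in young in vivo arrays. Cultured and in vivo arrays were intermixed near the control level, the change was 0.23 ± 0.11 with a 95% interval of -0.01 to 0.47, and the adjusted p was 0.0695. The call for Kif15 turned on single arrays and on scaling, with a change of 0.41 (adjusted p = 0.00325) after cyclic loess and 0.30 (adjusted p = 0.0142) without young in vivo replicate 3. It was 0.03 (adjusted p = 0.796) with 75th percentile scaling. Of the other motors, Kif20a and Kif20b, which act late in division, rose by 2.81 ± 0.09 and 2.28 ± 0.11, Kif2c, which takes microtubules apart at centromeres, by 1.44 ± 0.08, and the chromosome-bound motors Kif4 and Kif22 by 0.93 ± 0.10 and 0.38 ± 0.12. Kif23, of the central spindle, was at least 1.71-fold higher. The call for Kif22 was lost with 75th percentile scaling (0.18, adjusted p = 0.218) and quantile normalization (0.29, adjusted p = 0.064).

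All 7 spindle and centrosome genes rose, with a median of 1.94. Prc1, which bundles the microtubules of the central spindle, had values of 9.20, 8.97, 9.09 and 9.20 in old cultured arrays and 9.34, 9.18, 9.20 and 9.20 in young cultured arrays, against 4.72, 5.13, 4.95 and 5.14 in old in vivo arrays and 5.30, 5.30, 5.62 and 5.47 in young in vivo arrays. Its cultured arrays were close together and far above the in vivo arrays, by 3.97 ± 0.07, or 15.7-fold (adjusted p = 8.1e-17). Hmmr, a microtubule-associated protein of spindle poles, had values of 5.32, 5.44, 5.81 and 5.84 in old cultured arrays and 5.67, 5.74, 6.24 and 5.62 in young cultured arrays, against 4.77, 4.41, 4.82 and 4.89 in old in vivo arrays and 4.67, 4.72, 4.94 and 4.70 in young in vivo arrays. The separation was narrow but complete, with a change of 0.97 ± 0.11 (adjusted p = 3.3e-07). Tpx2, which activates the spindle kinase Aurora A, rose by 3.17 ± 0.11, Aurka, that kinase, by 2.48 ± 0.09, the centrosomal kinase Nek2 by 1.94 ± 0.13 and Ckap2, a microtubule-associated protein, by 1.77 ± 0.06, and Nusap1, which stabilises spindle microtubules, was at least 1.87-fold higher.

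The 3 cytokinesis genes had a median rise of 4.14. Anln, anillin, the scaffold of the contractile ring, had values of 7.93, 7.90, 7.99 and 8.16 in old cultured arrays and 8.06, 8.13, 8.22 and 8.24 in young cultured arrays, against 3.91, 3.61, 3.86 and 3.75 in old in vivo arrays and 3.73, 3.72, 3.79 and 3.80 in young in vivo arrays. With this probe set every in vivo array was at or below the control level, and its rise was at least 13.3-fold (adjusted p = 8.3e-18). That is no bound for the gene, since a second Anln probe set, above the controls in vivo with a mean of 4.54, was 1.05 higher in culture, with no overlap between conditions. Ect2, the exchange factor that switches on RhoA at the division plane, had values of 5.20, 5.47, 5.62 and 5.14 in old cultured arrays and 5.41, 5.69, 5.58 and 5.37 in young cultured arrays, against 3.13, 3.07, 3.18 and 3.18 in old in vivo arrays and 3.33, 3.14, 3.29 and 3.13 in young in vivo arrays. It was below the controls on all 8 in vivo arrays and above them on all 8 cultured ones, at least 2.14-fold higher (adjusted p = 7.1e-14). Racgap1, which recruits Ect2 to the central spindle, rose by 4.14 ± 0.07.

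Genes of chromosome structure rose in all 6 cases, with a median of 2.55. Mki67, the Ki-67 protein of the chromosome surface and a common marker of cycling cells, had values of 8.89, 8.55, 8.28 and 8.42 in old cultured arrays and 8.56, 8.63, 8.50 and 8.55 in young cultured arrays, against 5.07, 4.99, 4.87 and 4.93 in old in vivo arrays and 4.35, 4.89, 5.20 and 4.65 in young in vivo arrays. The change was 3.68 ± 0.11, or 12.8-fold (adjusted p = 1.2e-14), with no overlap between conditions. Smc2, a core ATPase of condensin, had values of 6.53, 6.67, 6.52 and 6.57 in old cultured arrays and 6.46, 6.65, 6.73 and 6.52 in young cultured arrays, against 6.46, 6.51, 6.0 and 6.46 in old in vivo arrays and 6.19, 6.69, 6.19 and 6.32 in young in vivo arrays. Cultured and in vivo arrays overlapped, and the change was 0.23 ± 0.09 (adjusted p = 0.0258), a call that was lost with 75th percentile scaling (0.03, adjusted p = 0.761), cyclic loess (0.12, adjusted p = 0.237) and quantile normalization (0.06, adjusted p = 0.570). Its partner Smc4 rose by 2.75 ± 0.07, the condensin subunits Ncapg and Ncapd2 by 3.35 ± 0.12 and 1.41 ± 0.16, and Top2a, the topoisomerase that untangles sister chromatids, by 2.35 ± 0.12.

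**Figure D3:**
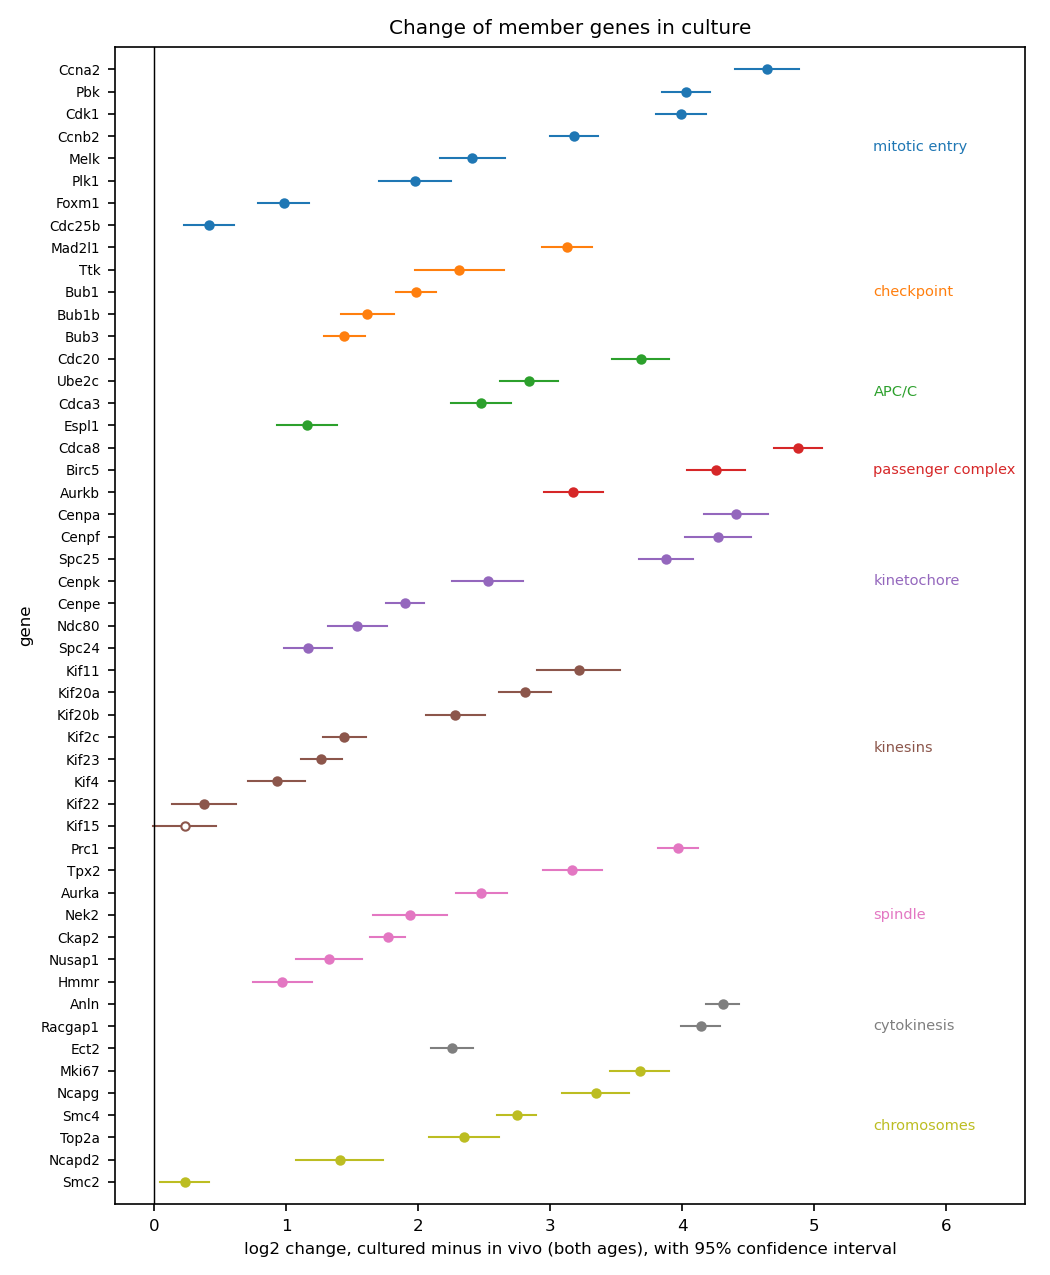
Log2 change of each member in culture (cultured minus in vivo, both ages, x axis) with its 95% confidence interval, by role. Filled points passed an adjusted p of 0.05, and the open point is Kif15. Values run from 0.23 to 4.88, and the kinesins have the lowest median, 1.35.

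For many members the size depended on which probe set was read, in both directions. The 51 members had 93 probe sets, and all cultured arrays were above all in vivo arrays in 73 of them, below in 0, with overlap in 20. For Smc2 the probe set of highest mean gave 0.23, while the other 3 gave 2.46, 3.41 and 4.19, none of them with overlap. Foxm1 gave 0.98 with the probe set used and 3.20 with another, Cenpe 1.90 and 3.57, Hmmr 0.97 and 2.42, and Aurkb 3.18 and 4.37. For the other members with several probe sets, none exceeded the one used by more than 1. In 15 members another probe set gave a change smaller by over 1, and in 8 of these such a probe set was above the controls on at least 1 array. Cenpa gave 4.41 with the probe set used and 0.04 with another, Anln 4.31 and 1.05, Cenpf 4.27 and 1.14, and Cdca8 4.88 and 2.44. The other 4 were Top2a with 2.35 and 0.15, Ccna2 with 4.64 and 3.40, Nek2 with 1.94 and 0.75, and Hmmr with 0.97 and -0.06.

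No age difference of these genes passed the test in either condition. Between old and young in vivo arrays 0 of 51 members were called by limma on the 8 in vivo arrays, where 1.35% of all genes were called, and 6 members had an unadjusted p under 0.05, where 15% of all genes did. The differences, old minus young, ran from -0.44 to 0.57 with a median of 0.02, beside 0.01 over all genes, and 28 of 51 were above 0 (53% of all genes). All 51 of the 95% intervals lay between -1 and 1, and 36 lay between -0.5 and 0.5. These counts include 7 members at or below the control level on all 8 in vivo arrays, and 11 that were so on some. For the 7 the in vivo values are background, so their small differences and intervals cannot show whether age had an effect. For the 11 the comparison rests in part on background values.

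The member with the largest positive difference was Cdc20. Its in vivo values are given above, and only the lowest old array, at 5.53, fell within the range of the young arrays. The difference was 0.57 ± 0.15 with an interval of 0.23 to 0.92 (adjusted p = 0.103). Prc1 had the largest negative one, -0.44 ± 0.13 with an interval of -0.72 to -0.16 (adjusted p = 0.123), and it was the single member whose old and young in vivo arrays did not overlap, as for 8.53% of all genes. When the spread was estimated from all 16 arrays, both passed, with adjusted p of 0.0264 for Cdc20 and 0.0207 for Prc1, and 6.07% of all genes did. The other 4 members with an unadjusted p under 0.05 were Bub3 and Ckap2, with differences of 0.33 ± 0.13 and 0.26 ± 0.11, and Tpx2 and Top2a, with -0.43 ± 0.18 and -0.30 ± 0.13. Tpx2 had 4.68, 4.36, 4.68 and 4.35 in old in vivo arrays and 4.65, 4.59, 5.36 and 5.18 in young in vivo arrays, and young replicates 3 and 4 were the highest of the 8. With its most variable probe set the difference of Tpx2 was 0.02 (adjusted p = 0.951).

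Between old and young cultured arrays 0 of 51 members were called by limma on the 8 cultured arrays, as were 0% of all genes, and the lowest adjusted p of a member was 0.997. An unadjusted p under 0.05 was reached by 2 members, Ccna2 at -0.16 ± 0.07 and Ube2c at -0.19 ± 0.08 (3.6% of all genes). Differences, old minus young, ran from -0.26 ± 0.16 for Kif20b to 0.29 ± 0.20 for Melk, and 17 of 51 were above 0 (50.8% of all genes). The rest were below 0 except Cenpf, which had a mean of 7.98 at both ages. All 51 intervals lay between -1 and 1, and 39 lay between -0.5 and 0.5. Mki67 differed by -0.03 ± 0.12 with an interval of -0.29 to 0.24, and Cdk1 by -0.09 ± 0.10 with an interval of -0.31 to 0.13.

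The interaction, the age difference in culture minus that in vivo, was called for 0 of 51 members, beside 0.587% of all genes, and the lowest adjusted p was 0.250, for Cdc20. Its in vivo part was background for the 7 members at or below the controls on all in vivo arrays, and in part for 11 more. At an unadjusted p under 0.05 there were 8 (12.3% of all genes): Ccna2, Bub3, Mad2l1, Cdc20, Ckap2 and Racgap1 with a lower age difference in culture, and Spc24 and Prc1 with a higher one. Cdc20 had -0.55 ± 0.20 with an interval of -0.98 to -0.12, and Spc24 had 0.46 ± 0.17 with an interval of 0.09 to 0.82.

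**Figure D4:**
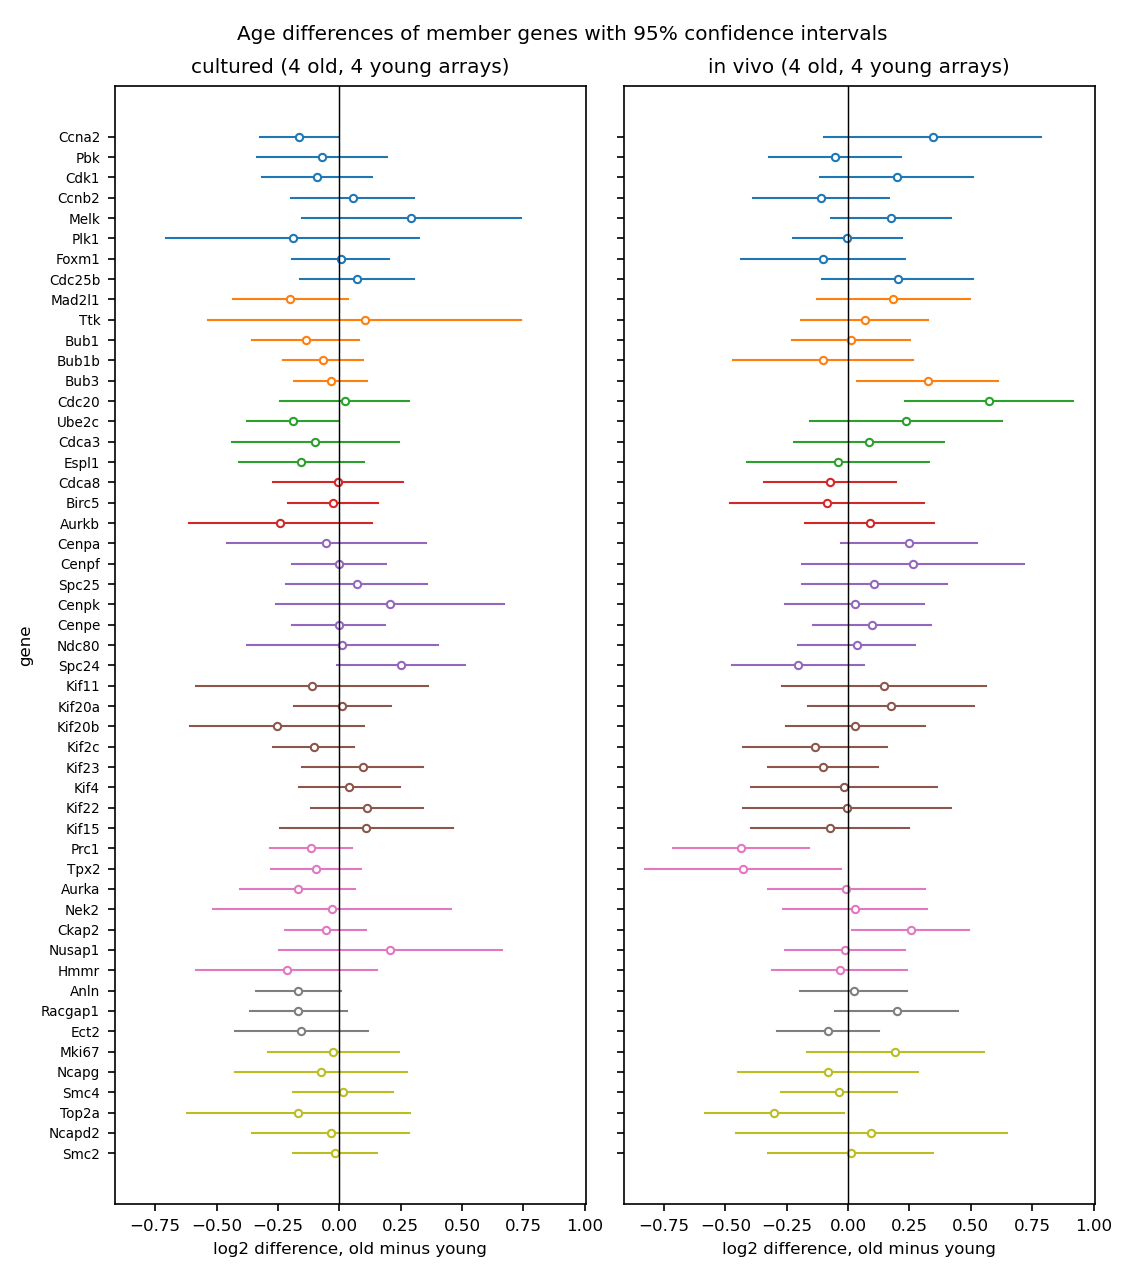
Log2 difference between old and young (old minus young, x axis) of each member in cultured (left) and in vivo (right) arrays, with 95% confidence intervals. All points are open because 0 of 51 passed in either condition, and Cdc20 and Prc1 are the farthest from 0 in vivo. The in vivo points of 7 members rest on background values, and those of 11 do so in part.

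Arrays of the same condition were not all alike. Old cultured replicate 3 was the lowest of the 8 cultured arrays for 22 of 51 members, as for 10.7% of all genes. It was above the mean of the cultured arrays for 10 members, and for 51.2% of all genes. Young in vivo replicate 3 was the highest of the 8 in vivo arrays for 14 of 51 members, as for 19.9% of all genes. The median SD within a group was 0.17 for members and 0.13 for all genes in culture, and 0.19 for both in vivo. Leaving out any 1 array kept the number of members that rose in culture between 49 and 51 and the number called for age at 0 in both conditions.

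Other genes of mitosis mostly rose in culture as well, with a smaller median. Of 56 other mitosis genes tested, 51 rose and 2 fell, with a median of 1.18. Over all genes tested, 34.8% were called higher and 44.7% lower. The largest rises were those of Trip13, an ATPase that resets the checkpoint, at 4.75 ± 0.10, and Cdkn3, a phosphatase of cyclin-dependent kinases, at 4.42 ± 0.13. The genes that fell were Pttg1, securin, the inhibitor of separase, at -1.32 ± 0.06 (adjusted p = 4.2e-12), and Troap, a spindle pole protein, at -0.17 ± 0.07 (adjusted p = 0.0322). Pttg1 averaged 9.48 in old cultured and 9.53 in young cultured arrays, against 10.96 in old in vivo and 10.69 in young in vivo arrays. The probe sets read for securin and for the separase it inhibits, Espl1, thus moved in opposite directions. Whether another probe set of Pttg1 would give the same was not tested.

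Smaller medians were found for complexes that also work outside mitosis. Of 11 genes of the anaphase promoting complex, its core subunits and the activator Fzr1, 5 rose and 0 fell, with a median of 0.20. The shares over all genes tested were 34.8% higher and 44.7% lower. The direction turned with scaling: after cyclic loess 4 rose and 5 fell, with a median of -0.11. With 75th percentile scaling 5 rose and 4 fell. Cdc27 rose by 2.33 ± 0.09 and Anapc4 by 1.12 ± 0.07, while the lowest changes were -0.08 ± 0.07 for Cdc26 and -0.06 ± 0.06 for the activator Fzr1, neither of which passed. Of 10 cohesin genes 6 rose and 1 fell, with a median of 0.47, and with 75th percentile scaling 5 rose and 4 fell. The cohesin release factor Wapl rose by 1.39 ± 0.10 and the subunit Rad21 by 0.84 ± 0.09, and Nipbl, of the cohesin loader, fell by 0.48 on the log2 scale, with its partner Mau2 at -0.13 ± 0.07.

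Regulators of late cell cycle transcription moved in both directions. Of 18 DREAM, MuvB and E2F genes 13 rose and 2 fell, with a median of 0.95, where 34.8% of all genes rose and 44.7% fell. E2f7, an E2F repressor of S phase genes, rose by 2.50 ± 0.16, and Tfdp1, the partner of E2F proteins, by 2.15 ± 0.14. The genes that fell were Rbl2, the p130 pocket protein of the repressive DREAM complex, at -1.25 ± 0.09, and E2f2, an activating E2F, at -0.34 ± 0.08. Rbl2 was the single gene of the related lists, markers aside, called for age in vivo, higher in old by 0.65 ± 0.13 (limma, adjusted p = 0.0406). The call was lost without any 1 of 6 of the 8 arrays (adjusted p of 0.0892 to 0.114) and with the mean over probe sets (adjusted p = 0.0903). Of 8 kinases, phosphatase subunits and phosphatase inhibitors that control mitotic entry, 7 rose and 0 fell, with a median of 0.65. The largest rises were those of the inhibitory kinase Wee1 at 1.47 ± 0.15 and the phosphatase inhibitor Arpp19 at 1.21 ± 0.07. The lowest were Ensa at 0.19 ± 0.11 and the inhibitory kinase Pkmyt1 at 0.41 ± 0.12.

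**Figure D5:**
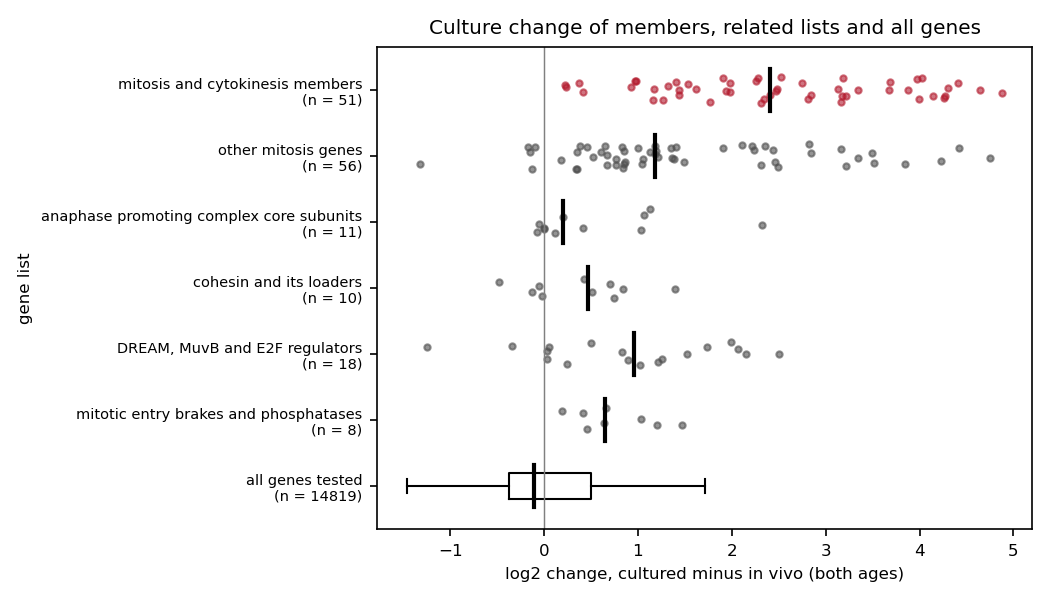
Log2 change in culture (cultured minus in vivo, both ages, x axis) of the 51 members, of 5 related lists and of all genes tested. Each point is a gene, thick bars are medians, and the box of all genes spans the quartiles with whiskers at the 5th and 95th percentiles. The median is 2.41 for the members, between 0.20 and 1.18 for the related lists and -0.11 for all genes.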

How the data were processed

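The authors deposited log2 intensities for 45141 probe sets on 16 arrays. RMA and affy, without versions, come from the submitters' processing notes. The logarithm's base is not stated in the sources used here and was read from the spread of the values (2.70 to 13.08). Symbols came from the platform annotation, updated through RefSeq (GRCm38.p6): 28898 probe sets had 1 symbol, 551 several and 15692 none listed, and only those with 1 were used. A gene was tested if at least 4 arrays exceeded 3.87, the 25th percentile. The 4 group means were modelled in R 4.3.3 with limma 3.58.1 (lmFit, eBayes), with Benjamini-Hochberg adjustment over 14819 genes, threshold 0.05 and two-sided p-values. Culture and the interaction used all 16 arrays, and each age comparison the 8 arrays of its condition, because in vivo arrays spread more. The fits were tested on simulated data. No block could be fitted, and p-values measure the spread between mice within a group, so the shared mice of cultured and in vivo samples were ignored. Replicate numbers follow the order of deposit. No array pair was identical (0 pairs). For arrays, their number limits the precision.

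The members, roles and gene lists were chosen with earlier results of these data known. Values on every array are given for Mki67, Cdk1 and the members with the largest and smallest culture change in each role group. Related lists are given by counts, median and their 2 highest and 2 lowest genes. Where in vivo arrays of a probe set were at or below the control level, a fold is a lower bound, its cultured mean against in vivo values raised to that level. Alternatives were 3 other scalings, 2 filters, 2 rules for choosing probe sets, a trended robust prior, another way to estimate the spread, and leaving out each array.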

Additional observations from a re-analysis of the deposited data

Results flagged for a closer look

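In 76 groups of 4 arrays, 3 members had 1 array far from the other 3 by Dixon's test, which chance gives in about 1 of 20 groups. Cdca8 was at 4.83 in old in vivo replicate 4, while the others were at 4.40 to 4.47. Prc1 was at 9.34 in young cultured replicate 1, while the others were at 9.18 to 9.20. Smc2 was at 6.0 in old in vivo replicate 3, while the others were at 6.46 to 6.51, and without that replicate the change of Smc2 in culture was 0.17 (adjusted p = 0.0560 by limma), no longer past the threshold.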

How the results depend on the processing

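No paired analysis was possible because the labels tie no cultured sample to the in vivo sample of its mouse, or to a collection day. Over both ages 48 to 50 members rose in culture under 9 other settings, and 49 to 51 when any 1 array was left out. In young mice the counts were 47 to 50 and 48 to 49, and in old mice 47 to 50 and 47 to 49. Age in culture and the interaction gave 0 members under every setting run. Age in vivo gave 0 when any array was left out and 0 under the other settings, except 2 (Cdc20 and Prc1) with all 16 arrays in the fit. The age difference of Tpx2 in vivo was -0.43 with the probe set used and 0.0225 with the most variable one. Scaling to the 75th percentile moved the median culture change of all genes to -0.31 and that of the members to 2.21, and turned the calls over all genes to 4122 higher and 8941 lower, against 5156 higher and 6631 lower in the deposited scaling. Single arrays decided the calls of Smc2, lost without any 1 of 5 arrays (adjusted p of 0.0501 to 0.0560: old in vivo replicate 3, young in vivo replicates 1 and 3, old cultured replicate 2 and young cultured replicate 3), and of Kif15, which was called without young in vivo replicate 3 or young cultured replicate 3 or 4. Signal near background limits the sizes of 7 members at or below the controls on all in vivo arrays and of 11 on some.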

Other observations

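Between cultured arrays of the same age the members did not move as a block. After each age group's mean was taken off, the first principal axis held 51.6% of the variance of the 51 members over the 8 cultured arrays, and 45.6% for all genes tested. At one end were Cenpa, Plk1, Hmmr, Cdc20 and Ccnb2, and at the other Ttk, Kif11, Cenpk and Melk. These genes were chosen after their values were seen, and no test was made. Ttk, the checkpoint kinase, had 7.33, 6.82, 6.10 and 6.44 in old cultured arrays and 6.90, 7.0, 6.11 and 6.27 in young cultured arrays. Plk1, the polo-like kinase, had 7.38, 8.15, 7.97 and 7.51 in old cultured arrays and 7.44, 7.78, 8.38 and 8.17 in young cultured arrays. Old cultured replicate 3 was the lowest of its group for Ttk and the second highest for Plk1, and old cultured replicate 1 was the highest for Ttk and the lowest for Plk1. Young cultured replicate 1 was also the lowest of its group for Plk1. On the axis 19 members lay on the side of Cenpa and 32 on that of Ttk. In vivo the first axis held 30.2% for members and 32.9% for all genes.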
